A study of Mus musculus with 12 samples.

Results

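Of 10 imprinted genes that control growth, 9 could be followed across 3 mouse cell lines, among 25128 genes and unnamed targets that were measured. The 10 were chosen by name: Igf2, Igf2r, Dlk1, Peg3, Peg10, Mest, Cdkn1c, Grb10, Plagl1 and Ndn. Each of the 9 was reached through the transcript its probes were designed on and had 3 probes, and Peg3 is not analysed here. RNA came from 4 plates labelled AtT20, the name of a mouse pituitary corticotroph tumour line, from 4 plates of the mouse microglial line BV2 and from 4 plates of the mouse neuroblastoma line N18. No plate was given a drug, and all were grown in DMEM with serum under basal conditions. The labels call all 3 immortalized and give neither strain, age nor genotype. Each line is a single established line, so its 4 plates are repeats of that line and the p-values measure the spread between such plates. Each plate was hybridised to 1 single-colour NimbleGen array with 72000 probes.

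An imprinted gene is transcribed mainly from the copy inherited from 1 parent, and the copy that is used is set by methylation marks laid down in the germ line. Igf2, Dlk1, Peg3, Peg10, Mest, Plagl1 and Ndn are known as paternally expressed genes. Igf2r and Cdkn1c are known as maternally expressed, and so is Grb10 in most tissues, although neurons use its paternal copy. As a class, paternally expressed genes are known to promote growth of the embryo and maternally expressed ones to hold it back, with exceptions such as Dlk1 and Plagl1, whose products can also halt differentiation or the cell cycle. The probes read the summed RNA of both copies, so nothing here separates the parental alleles. In RNA from a whole plate, fewer cells with a transcript and less transcript per cell cannot be told apart either.

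Levels are given on the log2 scale above the mean of 10 seminal vesicle proteins on the same plate, genes that these cells are not thought to use. A level counted as above the threshold when its mean over 4 plates exceeded 2 SD of those proteins, which was 0.37 ± 0.11 (SD, n = 4 plates) for plates labelled AtT20, 0.56 ± 0.15 for BV2 and 0.74 ± 0.10 for N18. Differences between lines are given on another scale, as log2 differences after quantile normalization of the 12 arrays, and were tested with limma. Probes differ in how strongly they bind, so levels are compared between lines for 1 gene or probe and never between genes.

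The labels were set against genes that mark each cell type. BV2 plates had 8 of 10 microglial genes above the threshold, with Csf1r, the receptor for colony-stimulating factor, at 4.70 ± 0.39 (SD, n = 4), but Aif1 and Cx3cr1 below it. N18 plates had 12 of 14 genes of neuroblastoma and nerve cells above it, but not Nefl or Dcx. On the plates labelled AtT20 only 1 of 8 corticotroph genes passed, Pitx1, against 2 in BV2 and 4 in N18, and the ACTH precursor Pomc was below the threshold at 0.29 ± 0.26. Those plates carried 7 of the 14 nerve cell genes, against 6 in BV2, with the neurofilament gene Nefl at 4.46 ± 0.48, and 4 of 6 fibroblast genes, against 3 of 6 in BV2 and 4 of 6 in N18. The arrays of these plates also stood apart, with medians of 10.85 to 11.50 and interquartile ranges of only 0.38 to 0.78, against medians of 9.90 to 10.54 and interquartile ranges of 1.28 to 2.21 in the other lines. They are called by their label throughout, and the calls of the 9 genes against them that turn on the scaling are given with it. Which plates shared a slide is not given in the sources used here, so slide and cell line cannot be told apart.

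In N18 cells 5 of the 9 genes were above the threshold: Mest, Peg10, Dlk1, Igf2 and Igf2r. In BV2 cells 3 passed (Igf2, Igf2r and Dlk1), and on plates labelled AtT20 also 3 (Igf2r, Dlk1 and Mest). Over all 25128 genes and targets, 55.4% passed in N18, 53.3% in BV2 and 35.0% on plates labelled AtT20. The passes of Dlk1 in BV2 and on plates labelled AtT20, and of Mest on the latter, were marginal and are described with those genes. Grb10, Plagl1, Cdkn1c and Ndn were below the threshold in all 3 lines, and on no plate did any of them exceed that plate's own threshold.

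**Figure D1:**
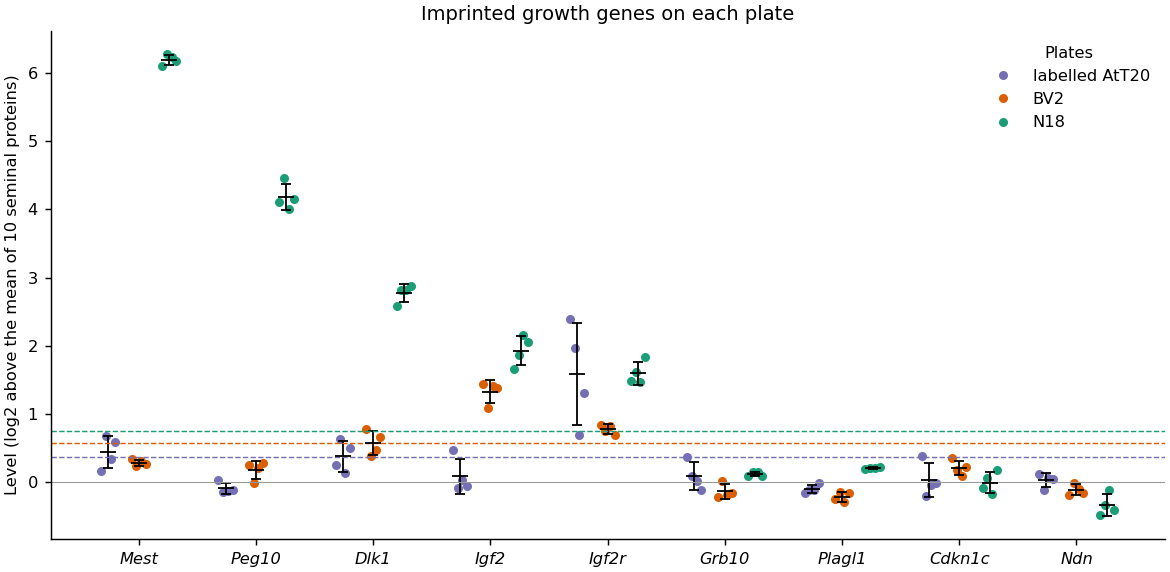
Level of 9 imprinted genes on each of 12 plates (vertical axis, log2 above the mean of 10 seminal proteins on the plate), with 1 point per plate, the mean and SD of 4 plates as bars, and dashed lines at the threshold of each line. The N18 plates of Mest (6.11 to 6.28), Peg10 (4.01 to 4.46) and Dlk1 (2.59 to 2.87) lie above every plate of the other lines, and the means of Grb10, Plagl1, Cdkn1c and Ndn are below the threshold in each line.

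Mest, a paternally expressed gene for a membrane protein of the alpha/beta hydrolase family, separated N18 from the other lines most widely. It read 6.11, 6.28, 6.24 and 6.18 in N18, 0.33, 0.23, 0.31 and 0.26 in BV2, and 0.16, 0.66, 0.33 and 0.58 on plates labelled AtT20. All N18 plates lay far above the rest, whereas the BV2 plates fell inside the range of the plates labelled AtT20 on this scale. Between N18 and BV2 the difference was 5.35 (SE 0.09, limma adjusted p = 5.29e-14). BV2 was below its threshold, so the fold is a lower bound, N18 being at least 34.2-fold higher. In BV2 the Mest probes gave 0.05, 0.13 and 0.59, of which the last, probe 1927, was just above the threshold. The 3 probes of Mest gave 6.19, 6.20 and 6.19 in N18, with no array at the scanner's upper limit of 16 on the raw log2 scale but single values of up to 15.99, close to it. Mest on plates labelled AtT20 was just over the threshold, at 0.43 ± 0.23 (SD, n = 4) and on 3 of 4 plates, and fell under it without replicate 2 (0.35).

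Peg10, derived from an ancient retrotransposon and paternally expressed, is needed for the placenta. Its levels were 4.11, 4.46, 4.01 and 4.16 in N18, 0.24, -0.03, 0.20 and 0.27 in BV2, and 0.02, -0.15, -0.14 and -0.13 on plates labelled AtT20. Only the N18 plates lay above the seminal proteins by more than the threshold. N18 exceeded BV2 by 3.18 (SE 0.09, adjusted p = 1.51e-12), at least 7-fold, and the plates labelled AtT20 by 3.26 (SE 0.12, adjusted p = 4.33e-10), at least 4.2-fold. The probes gave 3.95, 4.31 and 4.26 in N18, and each stayed below the threshold in both other lines.

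Dlk1 encodes a transmembrane relative of the Notch ligands that keeps precursor cells from differentiating. The N18 plates had levels of 2.59, 2.81, 2.82 and 2.87, the BV2 plates 0.77, 0.38, 0.46 and 0.66, and the plates labelled AtT20 0.24, 0.62, 0.13 and 0.49. The N18 plates stood clear of the others, while the other lines overlapped. Dlk1 was 1.43 higher in N18 than in BV2 (SE 0.10, adjusted p = 1.99e-08), a difference of 2.18 without normalization and 2.21 relative to the seminal proteins. Its mean level in BV2, 0.57 ± 0.18 (SD, n = 4), lay almost on the threshold, as did 0.37 ± 0.23 on plates labelled AtT20, and each passed on 2 of 4 plates only. In BV2 the pass was lost without replicate 1 (0.50) or replicate 4 (0.54), and on plates labelled AtT20 without replicate 2 (0.29) or replicate 4 (0.33). All 3 Dlk1 probes were above the threshold in N18 (3.30, 2.81 and 1.84). In BV2 the same probes gave 0.93, 0.65 and -0.04, and on plates labelled AtT20 0.78, 0.23 and -0.06.

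Reference promoters of Mest and Dlk1, which rose together in N18, are shown beside those of Plagl1 and Ndn, which were below the threshold in every line. The sequences are from RefSeq (GRCm38.p6), each 300 bases long, 250 before the annotated start and 50 after it, written 5′ to 3′ on the gene's strand. Capitals mark CpG dinucleotides, the sites at which imprinting marks are laid. Mest has several annotated starts, and the promoter shown is the second of 3.
Mest, chr6:30737800-30738099, plus strand: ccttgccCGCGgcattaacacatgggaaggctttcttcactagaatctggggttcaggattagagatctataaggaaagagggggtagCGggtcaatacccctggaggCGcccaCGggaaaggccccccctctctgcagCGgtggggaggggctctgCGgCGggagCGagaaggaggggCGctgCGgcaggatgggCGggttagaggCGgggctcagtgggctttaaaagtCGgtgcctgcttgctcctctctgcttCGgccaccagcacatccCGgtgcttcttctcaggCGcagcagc
Dlk1, chr12:109452573-109452872, plus strand: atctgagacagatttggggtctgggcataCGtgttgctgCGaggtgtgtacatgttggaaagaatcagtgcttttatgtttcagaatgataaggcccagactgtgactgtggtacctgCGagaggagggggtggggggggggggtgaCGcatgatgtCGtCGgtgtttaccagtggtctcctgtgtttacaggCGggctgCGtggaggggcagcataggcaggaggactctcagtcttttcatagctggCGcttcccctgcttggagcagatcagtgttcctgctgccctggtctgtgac
Plagl1, chr10:13090582-13090881, plus strand: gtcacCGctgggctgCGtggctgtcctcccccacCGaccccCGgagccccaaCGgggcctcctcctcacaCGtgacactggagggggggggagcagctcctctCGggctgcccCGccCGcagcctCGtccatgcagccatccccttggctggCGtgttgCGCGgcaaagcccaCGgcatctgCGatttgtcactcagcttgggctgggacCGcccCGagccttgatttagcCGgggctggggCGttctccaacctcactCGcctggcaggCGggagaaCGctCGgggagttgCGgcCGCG
Ndn, chr7:62348027-62348326, plus strand: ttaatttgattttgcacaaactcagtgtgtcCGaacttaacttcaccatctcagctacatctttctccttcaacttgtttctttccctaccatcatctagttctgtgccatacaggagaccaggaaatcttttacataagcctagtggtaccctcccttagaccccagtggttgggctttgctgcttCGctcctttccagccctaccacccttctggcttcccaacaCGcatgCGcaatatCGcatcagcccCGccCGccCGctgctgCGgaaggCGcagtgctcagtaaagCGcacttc

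The Mest window holds 17 CpG, the Dlk1 window 9, the Plagl1 window 26 and the Ndn window 11, against a median of 7 over 32851 promoters of the same length. At least 17 CpG occur in 31.41% of those promoters, at least 9 in 45.78%, at least 26 in 16.87% and at least 11 in 41.38%. Each window shown therefore had more CpG than the median promoter, for the genes that rose and those below the threshold alike. Among windows not shown, the first of Mest holds 8 CpG and those of Igf2 hold 2 to 24. Promoters were found for 8 of the 10 genes, 14 in all with alternative starts, and none for Peg10 or Cdkn1c. The GC box, GGGCGG on either strand, occurs in 9 of the 14 and in 35.7% of all promoters. The E box CACGTG, on either strand, occurs in 2 of the 14 (Igf2r and Plagl1) against 7.15% of all promoters. TATAAA, on either strand, occurs in 0 of the 14 and in 13.6% of all promoters. No measure of methylation or binding is among these data.

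Igf2, the fetal insulin-like growth factor, was above the threshold in both N18 and BV2. N18 plates had levels of 1.65, 1.86, 2.15 and 2.05, BV2 plates 1.44, 1.08, 1.40 and 1.38, and plates labelled AtT20 0.46, -0.10, 0.02 and -0.06. On this scale every N18 plate lay above every BV2 plate, and every BV2 plate above all plates labelled AtT20. After quantile normalization, however, N18 and BV2 differed by only 0.05 (95% interval -0.20 to 0.29, adjusted p = 0.737) and their plates overlapped. The same difference was 0.57 without normalization (adjusted p = 0.00934) and 0.60 relative to the seminal proteins (adjusted p = 0.00258), so whether Igf2 differed between these lines depends on the scaling. Probes 3288 and 3299, named by the numbers in their identifiers, gave 2.35 each in N18 and 1.65 and 1.72 in BV2. Their numbers are so close that the probes would overlap if the numbers are positions. The third probe, 4509, was below the threshold everywhere, at 0.27 ± 0.28 (SD, n = 4) in N18 and 0.07 ± 0.09 in BV2. The Igf2 call therefore rested on a pair of neighbouring probes.

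Igf2r, the mannose 6-phosphate receptor that takes up and degrades IGF2, was above the threshold in all 3 lines. In BV2 that pass held in 5 of 7 alternatives that kept every plate. It was lost with olfactory receptor genes as controls and at 3 SD. N18 plates gave levels of 1.48, 1.61, 1.46 and 1.83, BV2 plates 0.84, 0.74, 0.82 and 0.68, and plates labelled AtT20 2.38, 1.96, 0.69 and 1.31. N18 plates were above all BV2 plates, and the plates labelled AtT20 ranged widely, from the BV2 level to the highest value of any plate. N18 exceeded BV2 by 0.29 (SE 0.09, adjusted p = 0.0118). The difference was 0.79 without normalization (adjusted p = 9.26e-05) and 0.82 relative to the seminal proteins (adjusted p = 6.26e-06). That call was lost with the median of the probes (0.25, adjusted p = 0.0605) and with all 12 arrays in 1 fit (0.29, adjusted p = 0.106). Probe 7543 carried most of the signal, with 2.4 in N18, 1.37 in BV2 and 2.67 on plates labelled AtT20. Probe 8120 stayed below the threshold, at 0.32, -0.06 and -0.16 in the same order. Both Igf2 and Igf2r overlap other annotated genes (Igf2os and Mir483, and the antisense gene Airn), and since labelling started from double-stranded cDNA, RNA of either strand cannot be separated.

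**Figure D2:**
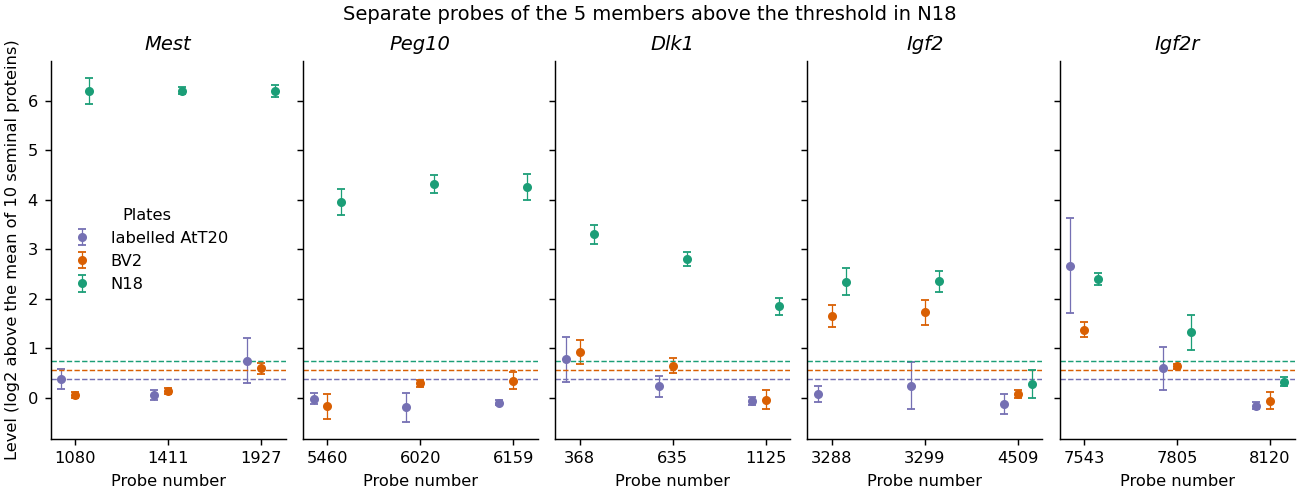
Level of each of the 3 probes of Mest, Peg10, Dlk1, Igf2 and Igf2r (vertical axis, log2 above the mean of 10 seminal proteins; horizontal axis, probe number), as mean and SD of 4 plates, with dashed lines at the thresholds. Mest and Peg10 give like values with all 3 probes in N18, whereas the last probe of Igf2 (0.27) and of Igf2r (0.32) stays below the N18 threshold of 0.74.

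The remaining genes are brakes on growth and regulators. Cdkn1c, the cyclin-dependent kinase inhibitor p57, had levels of -0.18 to 0.17 in N18, 0.09 to 0.34 in BV2 and -0.21 to 0.37 on plates labelled AtT20. Grb10, an adaptor that dampens signalling of the insulin and IGF1 receptors, ranged from 0.08 to 0.14, from -0.23 to 0.01 and from -0.13 to 0.36 in the same order. Both had means below the threshold in every line, with 1 plate of Cdkn1c labelled AtT20 (0.37) just over the line's mean threshold but below the plate's own. Plagl1, a zinc finger factor that arrests the cell cycle, was at 0.20 ± 0.01 (SD, n = 4) in N18, -0.22 ± 0.07 in BV2 and -0.11 ± 0.06 on plates labelled AtT20. Ndn, a MAGE family protein of postmitotic neurons, was at -0.34 ± 0.16 in N18, -0.12 ± 0.08 in BV2 and 0.02 ± 0.10 on plates labelled AtT20. Single probes passed on plates labelled AtT20 for Ndn (probe 746, 0.49) and Grb10 (probe 4885, 0.45), and no other probe of these 4 genes did so in any line. Below the threshold a difference in brightness need not be one in RNA, so no fold is given for these genes.

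Between N18 and BV2, limma called 7 of the 9 genes at an adjusted p under 0.05, 5 higher and 2 lower in N18. The background is high, with 61.7% of all genes and targets called, 25.9% higher and 35.8% lower. Beside Mest, Peg10, Dlk1 and Igf2r, Plagl1 was 0.27 higher (adjusted p = 0.00017), while Cdkn1c was lower by 0.28 and Ndn by 0.21 with both lines below the threshold. The calls of Cdkn1c and Ndn were lost without normalization (adjusted p = 0.161 and 0.102) and with all 12 arrays in 1 fit (adjusted p = 0.241 and 0.163), and that of Ndn also with the median of the probes (adjusted p = 0.135). The counts were 6 higher and 0 lower without normalization and 7 and 2 relative to the seminal proteins. Of all 25128 genes and targets, 8568 were higher and 2662 lower without normalization, and 10519 and 3764 relative to the seminal proteins. Grb10 (0.13, adjusted p = 0.0544) and Igf2 were not called. The plates of both lines did not overlap for 5 genes that were higher and 1 that was lower, Cdkn1c, against 55.4% of all genes and targets. Of the 27 probes, 13 were higher in N18 without overlap and 2 were lower, where 21.8% and 24.5% of all 72000 probes did so (46.3% in either direction). The median difference of the 9 genes was 0.27, that of all genes -0.06. With the 4 genes below the threshold in both lines left out, 4 calls remained.

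**Figure D3:**
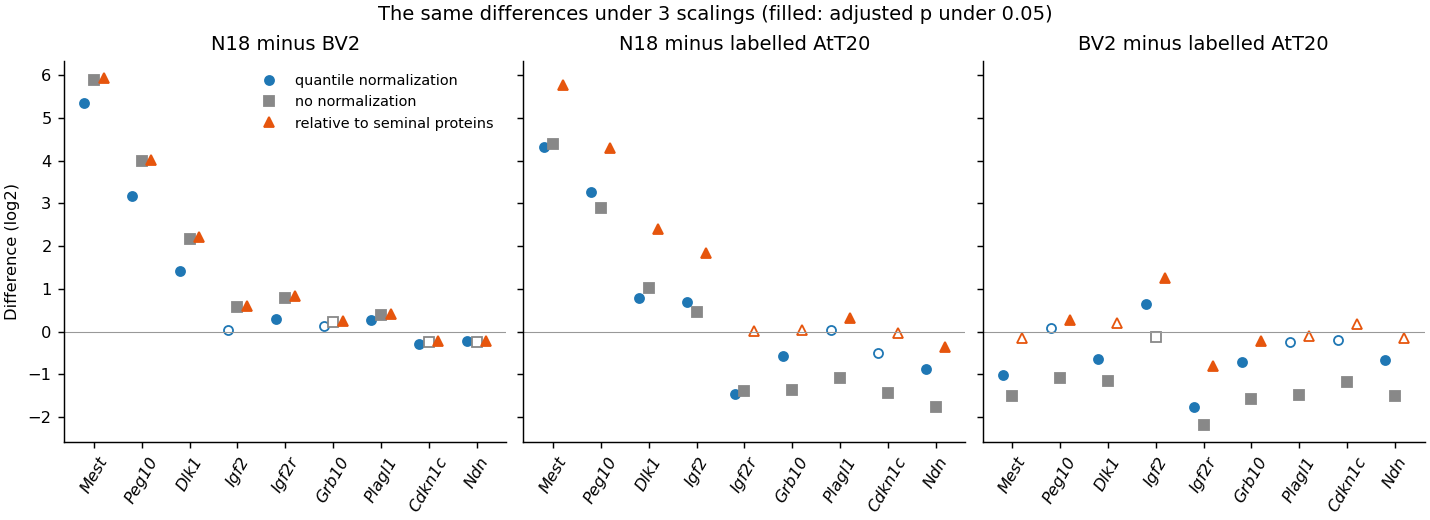
Log2 differences of the 9 genes between lines (vertical axis) under quantile normalization, no normalization and scaling to the seminal proteins, filled where the adjusted p was under 0.05. Mest, Peg10 and Dlk1 are higher in N18 than in either other line under all 3 scalings, whereas the sign of Igf2r between N18 and plates labelled AtT20 runs from -1.47 to 0.01.

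The comparisons with plates labelled AtT20 share those plates with each other and the N18 and BV2 plates with the comparison above, so their values are given side by side. For N18 minus AtT20, 4 of the 9 genes were called higher and 3 lower, where 26.7% and 46.6% of all genes were (73.3% in either direction). For BV2 minus AtT20, 1 was called higher and 5 lower, where 25.0% and 43.8% of all genes were (68.8% in either direction). Without normalization the counts were 4 higher and 5 lower in N18 and 0 and 8 in BV2, and relative to the seminal proteins 5 and 1 in N18 and 2 and 2 in BV2. Of all 25128 genes and targets, 4887 were higher and 15657 lower in N18 without normalization, and 2861 and 18622 in BV2. Relative to the seminal proteins these numbers were 15255 and 4130 in N18 and 12449 and 4247 in BV2. Mest differed by 4.33 (SE 0.17, adjusted p = 4.53e-10) and -1.02 (adjusted p = 0.000106) in these comparisons, and Dlk1 by 0.79 (adjusted p = 0.00022) and -0.64 (adjusted p = 0.000481). Relative to the seminal proteins, the BV2 differences were -0.15 for Mest (adjusted p = 0.247) and 0.20 for Dlk1 (adjusted p = 0.188), so neither call held and the sign of Dlk1 turned. Without normalization they were -1.51 for Mest (adjusted p = 4.41e-13) and -1.16 for Dlk1 (adjusted p = 2.9e-08). Peg10 was not called between BV2 and plates labelled AtT20 (0.08, 95% interval -0.17 to 0.33), but was called lower in BV2 without normalization (-1.09, adjusted p = 2.77e-07) and higher relative to the seminal proteins (0.27, adjusted p = 0.00931), with both lines below the threshold. Plates did not overlap for 3 genes higher and 2 lower in N18 (68.2% of all genes in either direction) and for 0 higher and 4 lower in BV2 (62.6%). Of the 27 probes, 12 were higher and 4 lower without overlap in N18, where 26.4% and 30.2% of all probes were (56.6% in either direction). In BV2 1 was higher and 5 lower, where 23.5% and 27.2% were (50.6% in either direction).

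Igf2 was called higher in N18 (0.70, adjusted p = 0.0165) and in BV2 (0.65, adjusted p = 0.017) than on plates labelled AtT20. Without normalization these differences were 0.46 (adjusted p = 0.0495) and -0.12 (adjusted p = 0.603), and relative to the seminal proteins 1.85 and 1.24. Both Igf2 calls were lost when replicate 2 or 4 of those plates was left out (0.57 and 0.56 for N18, 0.52 and 0.51 for BV2), and also without N18 replicate 3 (0.60) or BV2 replicate 3 (0.60). Igf2r was lower in N18 by 1.47 (adjusted p = 2.14e-06) and lower in BV2 by 1.76 (adjusted p = 3.06e-07). With the median of the probes these differences were -0.60 (adjusted p = 0.0405) and -0.85 (adjusted p = 0.00467). For N18 minus AtT20, probes 7543, 7805 and 8120 differed by -2.06, -0.60 and 0.30. The N18 value of Igf2r was 0.01 relative to the seminal proteins (adjusted p = 0.978), whereas that of BV2 was still -0.81 (adjusted p = 0.0119). Without normalization the median of all genes was lower by 0.85 in N18 and by 1.08 in BV2 than on plates labelled AtT20, and relative to the seminal proteins it was higher by 0.54 and 0.28. Quantile normalization placed it at -0.25 and -0.23.

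The lower calls of Grb10 and Ndn against plates labelled AtT20, with both lines of each pair below the threshold, also moved with the scaling. For N18, Grb10 was -0.57 (adjusted p = 0.0179) after quantile normalization and 0.03 (adjusted p = 0.77) relative to the seminal proteins. Ndn was -0.87 (adjusted p = 6.08e-05) and -0.37 (adjusted p = 0.000839) on the same scales. For BV2, Grb10 was -0.70 (adjusted p = 0.00544) and -0.23 (adjusted p = 0.0423), and Ndn -0.66 (adjusted p = 0.000738) and -0.14 (adjusted p = 0.119). Without normalization the differences were larger, for Grb10 -1.36 (adjusted p = 2e-10) in N18 and -1.59 (adjusted p = 3.03e-13) in BV2. For Ndn they were -1.76 (adjusted p = 6.34e-16) and -1.51 (adjusted p = 5.11e-12). With the median of the probes neither Ndn call held (adjusted p = 0.103 and 0.377). Neither Grb10 call held with that median, at -0.30 (adjusted p = 0.181) for N18 and -0.39 (adjusted p = 0.104) for BV2. Probe 4885 of Grb10 differed by -1.22 for N18 and -1.21 for BV2, whereas probes 3546 and 4092 differed by 0.10 and 0.04 for N18 and by -0.03 and -0.28 for BV2. Cdkn1c and Plagl1 were not called against these plates after quantile normalization when only the 8 arrays of each pair were fitted. With all 12 arrays in 1 fit, Cdkn1c was called lower in N18 (-0.49, adjusted p = 0.024) and Plagl1 lower in BV2 (-0.24, adjusted p = 0.0256). Cdkn1c in N18 was called in 5 of 9 alternatives that kept every plate, among them the mean of the log2 probes (-0.45, adjusted p = 0.0357). Without normalization Cdkn1c was called lower in N18 (-1.43, adjusted p = 2.73e-11) and in BV2 (-1.18, adjusted p = 1.8e-08). Plagl1 was called lower on that scale too (-1.08, adjusted p = 4.34e-07, and -1.47, adjusted p = 6.48e-11). Relative to the seminal proteins only Plagl1 in N18 was called, as higher (0.31, adjusted p = 0.000576). The narrow range of the arrays goes with the label of these plates and cannot be told apart from the cell line. Its part in these results was not tested.

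Several of these genes lie in clusters with other imprinted genes, of which 37 of 44 listed were measured. In N18 24 of the 37 were above the threshold, in BV2 18 and on plates labelled AtT20 13. Of all genes and targets, 55.4%, 53.3% and 35.0% passed in the same order. Against BV2, N18 was higher for 13, lower for 7 and not called for 17, with a median difference of 0.01, where 25.9% and 35.8% of all genes were higher and lower. The counts were 16 higher and 1 lower without normalization and 20 and 2 relative to the seminal proteins, so the balance depends on the scaling. That of all 25128 genes and targets did so too, with 8568 higher and 2662 lower, and 10519 and 3764, in the same order. The largest differences were those of Sgce, which encodes epsilon-sarcoglycan, at 1.99 (SE 0.10, adjusted p = 9.52e-10), Snrpn, a spliceosomal protein gene, at 1.96, the tetraspanin gene Cd81 at 1.29 and Copg2, a coatomer subunit gene, at 1.18. In the other direction Rtl1, a retrotransposon-derived gene, was at -0.73, Mcts2 at -0.48, the potassium channel gene Kcnk9 at -0.44 and Ascl2 at -0.36. None of these 4 was called without normalization (-0.19, -0.05, -0.17 and -0.16 in the same order) or relative to the seminal proteins (-0.16, -0.02, -0.14 and -0.13). The sign of the Rtl1 difference turned with the median of its probes (0.19, adjusted p = 0.0937).

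**Figure D4:**
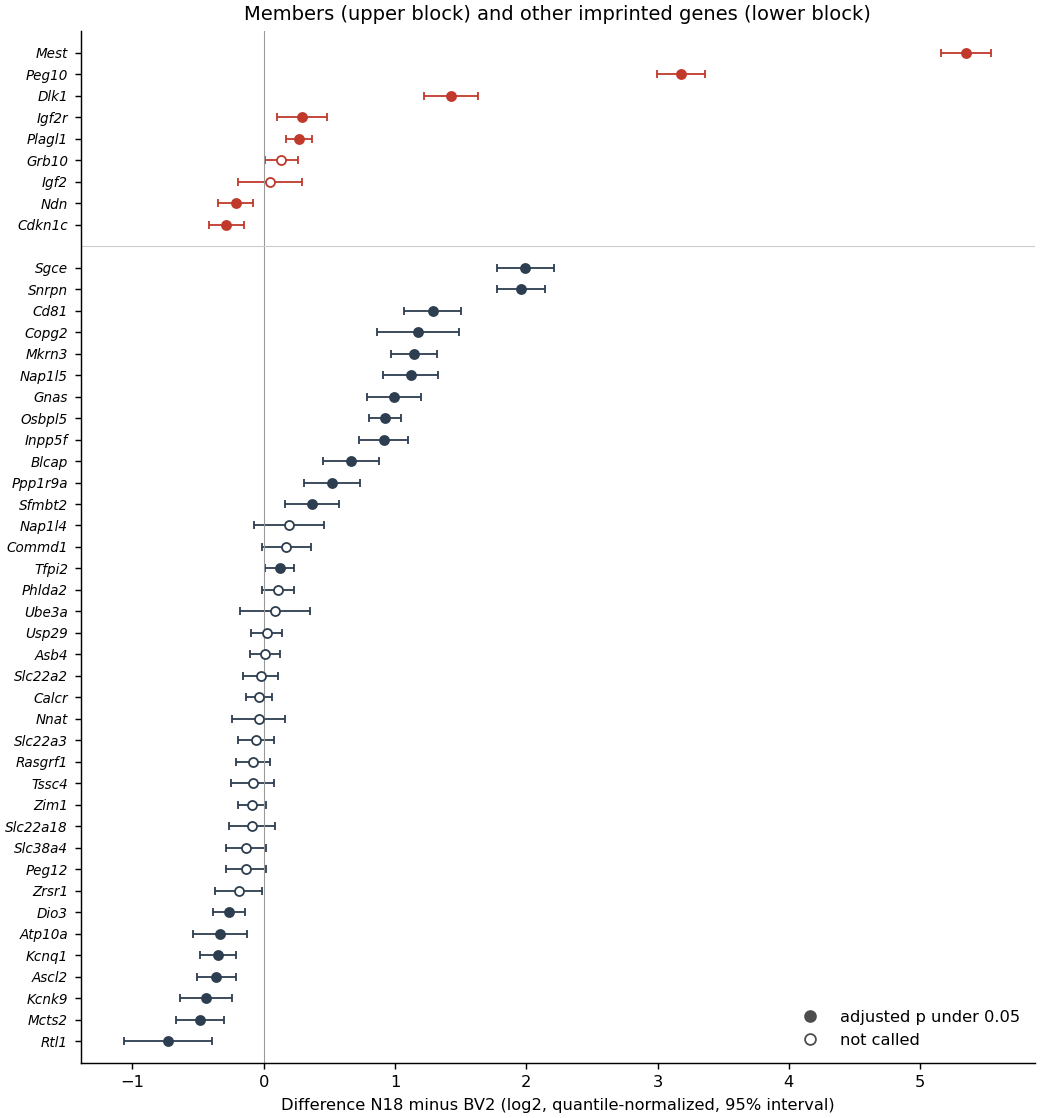
Log2 difference N18 minus BV2 after quantile normalization (horizontal axis) with 95% intervals for the 9 genes and for 37 other imprinted genes, filled where the adjusted p was under 0.05. Mest (5.35), Peg10 (3.18), Sgce (1.99), Snrpn (1.96) and Dlk1 (1.43) lie farthest to the right, and Rtl1 (-0.73) farthest to the left.

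Mest and Copg2 overlap on chromosome 6, and both were higher in N18. As for Igf2 and Igf2r, RNA of either strand cannot be separated where they overlap. The level of Copg2 was 3.59 ± 0.18 (SD, n = 4) in N18, 1.74 ± 0.52 in BV2 and 0.57 ± 0.30 on plates labelled AtT20. In BV2 Copg2 passed the threshold and Mest did not. Peg10 and Sgce, also on chromosome 6, have no protein-coding gene between them, and Sgce was at 3.72 ± 0.27 in N18, 1.03 ± 0.24 in BV2 and 0.37 ± 0.25 on plates labelled AtT20. Sgce too passed in BV2, where Peg10 did not. Ppp1r9a, 1 gene further on, passed in N18 alone, at 1.43 ± 0.38. More distant genes of the same cluster, Asb4, Calcr and Tfpi2, were below the threshold in all lines.

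On chromosome 12 the neighbours of Dlk1 behaved otherwise. Rtl1, next to Dlk1, was above the threshold in all 3 lines, at 1.90 ± 0.15 (SD, n = 4) in N18, 2.06 ± 0.25 in BV2 and 1.38 ± 0.72 on plates labelled AtT20. Dio3, the deiodinase that inactivates thyroid hormone, was below it in all 3. Ndn on chromosome 7 was itself below the threshold, yet Mkrn3 and Snrpn, paternally expressed genes of the same Prader-Willi cluster, had N18 levels of 2.02 ± 0.25 and 3.11 ± 0.12 and were below it in both other lines. Mkrn3 differed between N18 and BV2 by 1.14 (adjusted p = 3.86e-08). Of the genes around Cdkn1c on the distal part of the chromosome, Kcnq1 was below the threshold in N18 at 0.15 ± 0.07. Phlda2 was barely above it at 0.76 ± 0.11, and Cd81 was at 5.11 ± 0.11. Slc22a18 (1.05 to 1.54 over the N18 plates), Tssc4 (1.19 to 1.41), Osbpl5 (1.40 to 1.55) and Nap1l4 (3.63 to 4.43) were also above it. Ascl2 (0.35 to 0.48) was below it in N18. Kcnq1 passed on plates labelled AtT20 only, where its plates ranged from 0.14 to 0.62 around a threshold of 0.37.

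**Figure D5:**
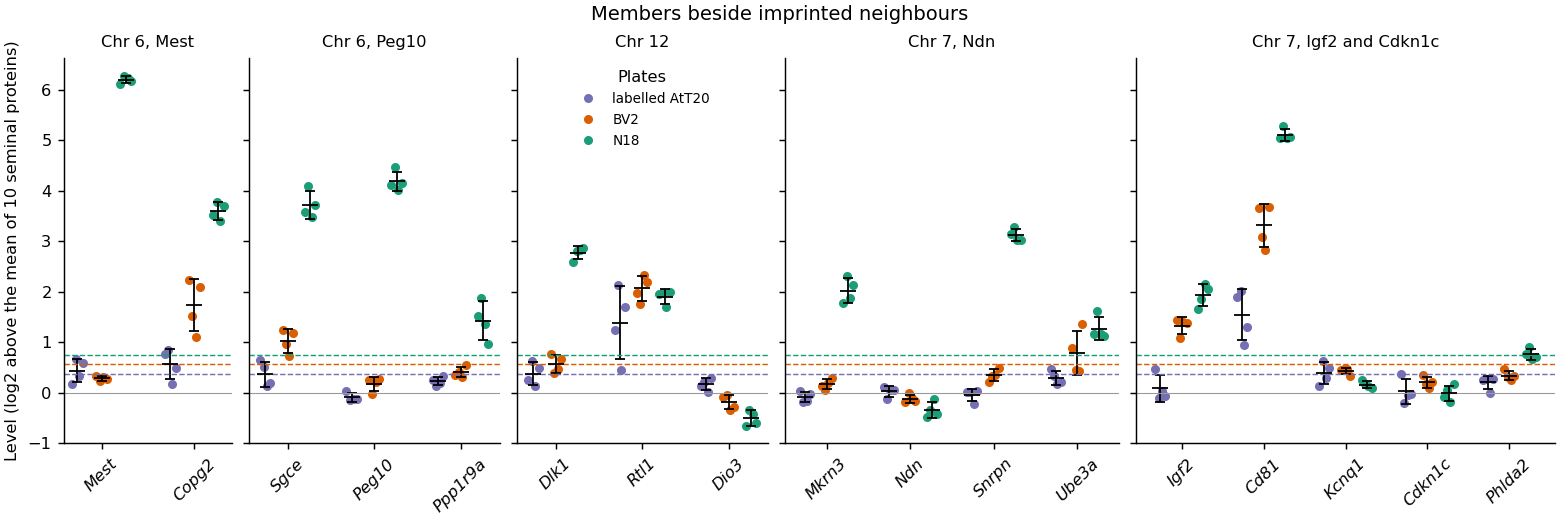
Level of Mest, Peg10, Dlk1, Ndn, Igf2 and Cdkn1c beside imprinted neighbours, in gene order (vertical axis, log2 above the mean of 10 seminal proteins), with 1 point per plate, mean and SD of 4 plates, and dashed lines at the thresholds. In N18, Copg2 (3.59) and Sgce (3.72) are high beside Mest and Peg10, whereas Mkrn3 (2.02) and Snrpn (3.11) are above the threshold beside Ndn (-0.34).

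The genes through which IGF2 acts were also read, 18 of 19 listed. Between N18 and BV2, 8 were higher, 7 lower and 3 not called. Without normalization 9 were higher and 4 lower, and relative to the seminal proteins 10 and 5. Of all 25128 genes and targets, 8568 were higher and 2662 lower, and 10519 and 3764, on the same scales. After quantile normalization 25.9% of all genes were called higher and 35.8% lower, 61.7% in either direction. Igf1r, the receptor that carries the signal of IGF2, was above the threshold in all lines and 2.16 higher in N18 than in BV2 (SE 0.09). Among binding proteins of the growth factors, Igfbp4 had the largest difference, 4.37 (SE 0.11), with levels of 5.84 ± 0.24 (SD, n = 4) in N18, 0.93 ± 0.19 in BV2 and -0.13 ± 0.16 on plates labelled AtT20. Igfbp5 (1.51) and Igfbp7 (1.47) were higher too, and Igfbp3 lower (-0.48), a call lost without normalization (-0.30, adjusted p = 0.159). Igf1, the other growth factor of the pathway, was below the threshold in all lines. Igf2bp2, which binds Igf2 mRNA, was higher in BV2, with a difference of -2.67 (SE 0.09) and a BV2 level of 3.43 ± 0.36. Igfals (-0.68) and the adaptor gene Irs4 (-0.57) were lower in N18, the latter not called with the median of its probes (-0.14, adjusted p = 0.115).

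Against plates labelled AtT20, N18 had 3 of the 18 higher and 11 lower (26.7% and 46.6% of all genes), and BV2 had 2 higher and 13 lower (25.0% and 43.8%). Relative to the seminal proteins the counts were 9 higher and 2 lower in N18, so that the balance turned, and 4 and 7 in BV2. The balance of all 25128 genes and targets turned as well, with 15255 higher and 4130 lower in N18 and 12449 and 4247 in BV2. Igfbp4 was 5.21 higher in N18 and 0.84 higher in BV2, although the latter was -0.30 without normalization. Igf1r was 1.93 lower in BV2, a difference that became 0.63 with the median of its probes (adjusted p = 0.00309). Igfbp2 (-2.81), Irs4 (-2.15) and Igfbp6 (-1.77) were lower in BV2 than on plates labelled AtT20. In N18, Irs4 (-2.73), Insr (-1.52), Igfbp3 (-1.45) and Igfals (-1.44) were lower, while Igfbp5 (0.75) and Igf2bp3 (0.47) were higher, the last turning to -0.50 without normalization. Relative to the seminal proteins the calls of Insr (-0.05, adjusted p = 0.867), Igfbp3 (-0.11, adjusted p = 0.484) and Igfals (-0.15, adjusted p = 0.365) were lost.

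Of 11 relatives of the 10 genes, 8 were measured. Between N18 and BV2, 3 were higher, 2 lower and 3 not called. Of all genes, 25.9% were called higher and 35.8% lower, 61.7% in either direction. Cdkn1a, which encodes the inhibitor p21 and is related to Cdkn1c, was above the threshold in BV2 (4.55 ± 0.50, SD, n = 4) and N18 (3.88 ± 0.22) and lower in N18 by 1.39, and was below it on plates labelled AtT20. Cdkn1b, the p27 gene, was below it in all lines, with a difference of 0.15 between N18 and BV2 (adjusted p = 0.0256) that was not called with all 12 arrays in 1 fit (adjusted p = 0.352). Plagl2, a close relative of Plagl1, was lower in N18 than in BV2 by 1.22. Grb14, a relative of Grb10, was above the threshold in N18 alone (1.33 ± 0.16) and 0.94 higher there. Maged1, a MAGE family gene as Ndn is, was above it in all lines and 1.31 higher in N18.

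The genes with the most similar course over the 12 arrays were sought for the 4 genes with the widest range of line means. Likeness was the mean absolute difference of quantile-normalized log2 values over 12 arrays, each gene centred on its own mean, among 12171 named genes above the threshold in at least 1 line. Nearest to Mest were Fscn1 (0.27), Dpysl3 (0.31) and Uchl1 (0.33). Nearest to Peg10 were Cttn (0.15), Syp (0.16) and Atp6v0e2 (0.16). Dlk1 was nearest to Ptms (0.10), Tns2 (0.11) and Repin1 (0.11), and Igf2r to Phka2 (0.10), Adam22 (0.10) and Kdm2b (0.11). These values describe 3 lines and 12 arrays only.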

How the data were processed

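Arrays of 4 plates each of AtT20, BV2 and N18 were used. As deposited, the values are log2 Cy3 intensities of 72000 probes, which the authors transformed to log2 after scanning. The medians of the arrays differ and even the dimmest probes keep a bright floor, so the values were treated as neither background-subtracted nor normalized. Probes were grouped by the transcript identifier in their name into 25631 targets, of which 69.37% were given a mouse symbol from RefSeq. Genes with several targets (433) were averaged. Peg3 is not analysed here.

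Probes were averaged on the linear scale. The detection threshold follows the study's methods, with the averaging chosen here. Pairs of lines were tested by lmFit and eBayes with trend (limma 3.58.1, R 4.3.3) on quantile-normalized values of the 8 arrays of each pair, with Benjamini-Hochberg adjustment over 25128 genes and targets and calls at 0.05. Where 1 line was below the threshold, a fold is the smallest of the bounds under 3 scalings. Fits were tested on simulated data. Figures were drawn with matplotlib 3.10.9 in Python 3.11.15.

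The genes and lists were chosen with earlier results of these data known. Named are all 10 genes, the 4 called genes of each list with the largest difference in each direction, the 3 nearest profiles of 4 genes, and markers or neighbours where a result turns on them. Neighbours among the imprinted genes beyond that rule were chosen after their values were seen. Alternatives were other scalings, normexp, other averages of probes, all 12 arrays in 1 fit, filters, a replicate block, other thresholds and leaving out each plate. At least 2 probes above the threshold was added after seeing the data. The 4 arrays per line limit the precision.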

Additional observations from a re-analysis of the deposited data

Results flagged for a closer look

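In 27 groups of 4 plates, 1 group per gene and line, the plate farthest from the rest was compared with the spread of its group, and 2 groups held a plate whose gap passed Dixon's 95% critical value. Chance gives about 1 in 20 such groups. The level of Igf2 on BV2 replicate 2 was 1.08, while the other BV2 plates lay between 1.38 and 1.44. It stayed above the threshold on that plate. The level of Peg10 on replicate 1 of the plates labelled AtT20 was 0.0215, while the other plates lay between -0.15 and -0.13, all below the threshold.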

How the results depend on the processing

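Mest, Peg10 and Dlk1 were called higher in N18 than in BV2 in all 19 settings, with differences of 5.33 to 6.38, 3.13 to 4.20 and 1.37 to 2.21. The number of genes called between N18 and BV2, 7, was 4 with all 12 arrays in 1 fit, 4 with only genes above the threshold and 3 with a difference of at least 1, and 7 to 8 with each plate left out. Between N18 and plates labelled AtT20, 7 became 3 with a difference of at least 1. Between BV2 and these plates, 6 became 3 with the median of the probes and 2 with a difference of at least 1. On plates labelled AtT20, 3 genes above the threshold became 1 with olfactory receptor genes as controls, 1 at 3 SD, 1 with all 4 plates required and 1 to 3 with each plate left out, 1 being the count without replicate 2. In BV2, 3 became 1 with olfactory receptor genes and 1 at 3 SD, Igf2 being the gene that remained and Igf2r and Dlk1 those lost. The count for N18 was 5 throughout. At least 2 probes above the threshold left 2, 3 and 5 genes for AtT20, BV2 and N18.

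Signs turned as follows. Without normalization, N18 minus AtT20 was -1.08 for Plagl1, -0.50 for Igf2bp3 and -0.0196 for Grb14, and BV2 minus AtT20 was -0.12 for Igf2, -1.09 for Peg10, -0.20 for Slc22a18 and -0.30 for Igfbp4. Relative to the seminal proteins, N18 minus AtT20 was 0.00945 for Igf2r, 0.0314 for Grb10 and 0.0464 for Plag1, and BV2 minus AtT20 was 0.20 for Dlk1, 0.18 for Cdkn1c and 0.0704 for Tssc4. With the median of the probes, Rtl1 was 0.19 between N18 and BV2, and BV2 minus AtT20 was 0.00455 for Cdkn1c and 0.63 for Igf1r. With each plate left out, N18 minus BV2 ranged from -0.0484 (without N18 replicate 3) to 0.125 for Igf2, N18 minus AtT20 from -0.0617 (without AtT20 replicate 1) to 0.0860 for Plagl1, and BV2 minus AtT20 from -0.374 to 0.0454 (without AtT20 replicate 1) for Cdkn1c. The cause was not tested.

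The share of higher calls among all genes called was 42.0%, 36.4% and 36.3% in N18 minus BV2, N18 minus AtT20 and BV2 minus AtT20. It was 76.3%, 23.8% and 13.3% without normalization and 73.6%, 78.7% and 74.6% relative to the seminal proteins, 55.8% in N18 minus BV2 with a difference of at least 1, and 50.5% and 49.1% in the comparisons with AtT20 with only genes above the threshold. Over all genes, N18 minus BV2 had 6509 higher and 9000 lower calls, 4775 and 5495 with all 12 arrays in 1 fit, and 1378 and 1093 with a difference of at least 1. That minimum left 3312 and 4571 in N18 minus AtT20 (from 6710 and 11699) and 3153 and 3950 in BV2 minus AtT20 (from 6277 and 11017). Same-numbered plates deviated together with correlations of -0.11 to 0.32. A plate's best match in another line had its own number in 3 of 12 cases, so the numbers were not taken as pairs. With a replicate block, 7, 8 and 6 of the genes were called against 7, 7 and 6. Signal near the level of the seminal proteins limits what can be read of Grb10, Plagl1, Cdkn1c and Ndn.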
